A study of Mus musculus with 70 samples.

Results

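Gene expression in the caudal hindbrain nuclei was compared with that in the hypothalamus of adult mice. The comparison took in 21 of the 70 libraries of the series, chosen by their region labels alone, with 7 libraries from the caudal hindbrain and 14 from the hypothalamus. The hindbrain side held 4 libraries of the nucleus of the solitary tract (NTS) and 3 of the dorsal vagal complex (DVC). The hypothalamic side held 3 libraries of the arcuate nucleus (ARH), 2 of the ventromedial nucleus (VMH), 4 of the dorsomedial nucleus (DMH), 2 of the paraventricular nucleus (PVH) and 3 of the lateral hypothalamic area (LHA). Regions weighed equally within each side. All 21 libraries came from untreated male C57BL/6 mice at P56 (56 days after birth), of the C57BL/6NTac substrain by the methods of the study. RNA was extracted from tissue punched out of frozen sections, and each library pooled tissue from several mice. There were fewer mice than libraries, so that libraries of different regions shared animals and the spread between replicates is between pools. Embryos of the same strain (E14.5) gave 3 libraries of the hindbrain (H) and 3 of the terminal and peduncular hypothalamus (THy-PHy), which the adult comparison did not use. The 3 adult libraries of the parabrachial nucleus (PB), in the rostral hindbrain, are given beside some results.

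The NTS receives taste and visceral input from the gut, heart and lungs through the vagus and other cranial nerves, and the DVC contains the NTS together with the area postrema and the dorsal motor nucleus of the vagus, whose cholinergic neurons project to the viscera. These nuclei arise from the most caudal segments of the embryonic hindbrain, where Hox genes, a family of clustered homeobox genes, are switched on in an order along the body axis that follows their order in each cluster. The hypothalamus arises in the forebrain, outside the Hox domain, from progenitors that express other homeobox genes such as Nkx2-1, and it makes many of the neuropeptides that govern feeding, body fluids and the pituitary. Both areas belong to the circuit of energy balance, and the NTS relays satiety signals to the hypothalamus.

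The 21 libraries held between 14201960 and 19999209 estimated counts, with medians of 16920940 in the hindbrain nuclei and 16882338 in the hypothalamus. Mitochondrial transcripts took 7.08% to 12.41% of the TPM (a level scaled to the length of the transcript and the total of the library) in the hindbrain libraries and 5.55% to 10.27% in the hypothalamic ones. The labels were checked against defining genes, chosen after their values were seen unless the rule on named genes takes them in. Hoxb5, the marker fixed for the caudal hindbrain, lay between 3.14 and 91.0 TPM in the 7 hindbrain libraries and between 0 and 0.0751 TPM in the 14 hypothalamic ones. Gcg, the precursor of glucagon-like peptide 1 in NTS neurons, stood at 0.108, 0, 0 and 0 TPM in the 4 libraries labelled NTS and at 9.34, 6.58 and 0.763 TPM in those labelled DVC. Prlh, another peptide of caudal NTS neurons, was at 0 in all 4 NTS libraries and at 13.7, 3.57 and 3.39 TPM in DVC, so 2 defining peptides of the caudal NTS were at or near 0 in the libraries labelled NTS. By the study's section drawings, the NTS and DVC punches came from different coronal sections. Both libraries labelled VMH held Hcrt (659 and 939 TPM) and Pmch (3454 and 3595 TPM), peptides of the lateral hypothalamus, beside Nr5a1 (45.8 and 21.4 TPM), a defining gene of the VMH. The 3 ARH libraries held 67.3, 93.7 and 75.8 TPM of Cga, a subunit of pituitary hormones. The first NTS library stood apart in genes of the choroid plexus, which are given with the cell type markers.

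Of 16878 genes tested, 940 were higher in the hindbrain nuclei (5.57%) and 916 in the hypothalamus (5.43%). The test was edgeR's quasi-likelihood test on the estimated counts, and a gene was called at a Benjamini-Hochberg adjusted p under 0.05 and a log2 fold change above 1 in either direction. All adjusted p-values below come from this test, fold changes are log2 ratios of hindbrain nuclei to hypothalamus with their SE unless another contrast is named, and levels are TPM. The median log2 fold change of all genes tested was -0.003. For 349 of the higher genes (2.07%) every hindbrain library lay above every hypothalamic one, and for 383 of the lower genes (2.27%) every library lay below. The error is that between libraries of a region, so a call concerns these 7 regions. With the regions themselves as the units, 2 against 5 (limma on region means of log2(TPM + 0.5)), 286 genes were higher in the hindbrain nuclei and 395 in the hypothalamus, of which 285 and 343 were also called with libraries as units. Limma with the same pseudocount on the 21 libraries gave 517 and 825. In punched tissue, fewer cells of a type and less RNA per cell cannot be told apart. The filter on low counts worked by region. A gene near 0 on one side could be tested through the other side alone, which then set the direction of its call. Fold changes of genes with few or no counts on one side depend on the prior count of the fit, so where a fold change is printed for a gene with 3 counts or fewer on one side, the ratio of counts or its lower bound is also given.

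The 250 bases before the RefSeq start of 4 genes are printed because these genes lay near 0 on one side and well above it on the other. They are Hoxc4, of the Hox family, and Dbh, the enzyme that makes noradrenaline, both higher in the hindbrain, and Nkx2-1, a homeobox factor, and Pmch, the precursor of melanin-concentrating hormone, both higher in the hypothalamus. The sequences are those of RefSeq on GRCm38, 5′ to 3′ on the strand of the gene, and capitals mark TAAT or its reverse complement ATTA, the core that most homeodomain proteins bind. The windows are chr15:103034145-103034394 on the plus strand for Hoxc4, chr2:27165257-27165506 on the plus strand for Dbh, chr12:56536909-56537158 on the minus strand for Nkx2-1 and chr10:88090822-88091071 on the plus strand for Pmch. The windows of Hoxc4 and Dbh lie inside the wider gene spans of the annotation that are given below, which begin further upstream.
Hoxc4: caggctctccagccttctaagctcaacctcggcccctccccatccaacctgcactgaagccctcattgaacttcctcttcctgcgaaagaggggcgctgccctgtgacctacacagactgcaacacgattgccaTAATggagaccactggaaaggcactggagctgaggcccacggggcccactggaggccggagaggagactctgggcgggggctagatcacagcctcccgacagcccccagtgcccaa
Dbh: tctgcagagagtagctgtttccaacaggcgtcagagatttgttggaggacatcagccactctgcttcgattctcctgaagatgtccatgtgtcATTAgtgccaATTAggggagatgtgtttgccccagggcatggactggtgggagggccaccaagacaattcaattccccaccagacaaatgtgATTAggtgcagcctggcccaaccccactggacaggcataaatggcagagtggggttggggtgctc
Nkx2-1: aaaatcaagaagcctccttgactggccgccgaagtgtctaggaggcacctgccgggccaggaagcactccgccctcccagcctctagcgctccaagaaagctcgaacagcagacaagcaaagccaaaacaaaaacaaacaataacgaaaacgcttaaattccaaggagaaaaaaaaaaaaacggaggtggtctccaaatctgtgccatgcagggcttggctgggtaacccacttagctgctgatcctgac
Pmch: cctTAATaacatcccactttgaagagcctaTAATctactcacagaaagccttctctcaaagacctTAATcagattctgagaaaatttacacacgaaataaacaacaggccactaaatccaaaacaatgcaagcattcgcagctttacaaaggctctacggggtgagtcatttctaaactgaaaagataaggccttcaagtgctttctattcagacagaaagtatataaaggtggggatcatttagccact
The core occurred 3 times before Dbh, 3 times before Pmch, once before Hoxc4 and not in the Nkx2-1 window. Of 32851 such windows of 27025 genes, 54.9% held TAAT on either strand, against 47.5% of the 819 windows of genes called higher in the hindbrain nuclei and 46.6% of the 833 windows of genes called higher in the hypothalamus. AGGTCA, the element of nuclear receptors such as those of retinoic acid, was searched on both strands and was found in 14% of all windows, 15.0% of the hindbrain ones and 13.2% of the hypothalamic ones. It occurred once before Hoxc4 and in none of the other printed windows. TATAAA, searched on the strand of the gene only, was found in 7.59%, 6.96% and 8.28% of the 3 sets, and lay 27 bases before the start of Pmch. None of the 3 motifs contains another, and a match is a run of letters, not a shown binding site. Of the 18 called Hox genes, 10 had a window, of which 8 held TAAT and 4 held AGGTCA.

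Most Hox genes that could be tested were called higher in the hindbrain nuclei. Of 39 Hox genes, 19 were tested, 18 were higher in the hindbrain nuclei and 0 in the hypothalamus, with a median log2 fold change of 8.42. The remaining one, Hoxb7, was at 0 in 4 of the 7 hindbrain libraries and in all hypothalamic ones and was not called. The 20 genes that were too low to be tested include every member with a number from 9 to 13, together with Hoxa7, Hoxb1, Hoxc8 and Hoxd8. Of the 19, 13 lay without overlap between the sides. Of all genes tested, 5.57% were called in this direction, 2.07% without overlap. With DESeq2 16 Hox genes were called and with the 7 regions as units 14, where the median on the log2(TPM + 0.5) scale was 4.04. The summed level of all Hox genes was between 87.2 and 414 TPM in a hindbrain library and between 0.429 and 1.73 TPM in a hypothalamic one. The filter on low counts worked by region, so a Hox gene could be tested through the hindbrain libraries alone. With hypothalamic levels this low, that filter set the direction of the calls, which is not a separate result.

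Hoxb5 (ENSMUSG00000038700.4, chromosome 11 of GRCm38, 96303336 to 96306121) stood at 3.14, 4.26, 5.81 and 7.08 TPM in NTS and at 87.8, 91.0 and 60.1 TPM in DVC. Its log2 fold change against the hypothalamus was 10.63 ± 0.32 (adjusted p = 1.44e-12), and the counts gave a ratio of 3320 (95% exact Poisson interval 1140 to 16100, for counting error in the 3 hypothalamic counts only). The DVC libraries were all above the NTS libraries. Hoxc4 (ENSMUSG00000075394.4, chromosome 15, 103018934 to 103036852), whose window is printed above, was at 12, 10.3, 7.70 and 11.9 TPM in NTS, at 46.1, 48.4 and 35.7 TPM in DVC and at 0 to 0.0584 TPM in the hypothalamus. Its log2 fold change was 11.14 ± 0.24 (adjusted p = 5.09e-12), with a count ratio of 3320 (918 to 27400). Hoxd3 differed less among the hindbrain libraries, with 20.1, 21.5, 12.5 and 22.0 TPM in NTS and 24.7, 25.8 and 28.9 TPM in DVC, against 0 to 0.061 TPM in the hypothalamus (10.96 ± 0.23, adjusted p = 4.80e-14), with a count ratio of 2010 (688 to 9750). Hoxb3 had the highest median level of the 19 tested Hox genes, with 17.9 to 40.1 TPM (median 25.9) in the hindbrain libraries and up to 0.403 TPM in the hypothalamus (9.91 ± 0.25, adjusted p = 4.67e-15). Hoxa4 and Hoxc5 had no count in any hypothalamic library and were at least 1040-fold and at least 679-fold higher in the hindbrain nuclei, against a floor of 3 counts over the 14 libraries. Hoxd3 and Hoxd4, Hoxa3 and Hoxa4, and Hoxc4, Hoxc5 and Hoxc6 overlap in the annotation, so the estimation divided reads between them.

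Within the hindbrain, some Hox genes were higher in DVC than in NTS. In the same fit 8 of the 19 were higher in DVC than in NTS, a direction called for 0.237% of all genes, and 0 were higher in NTS. All 8 have numbers of 4 or above (Hoxa4, Hoxb4, Hoxc4, Hoxa5, Hoxb5, Hoxc5, Hoxb6 and Hoxb8), and all of the 7 tested genes with numbers from 1 to 3 missed the call. So did the other 4 of the 12 tested genes with numbers of 4 or above, Hoxa6 (adjusted p = 0.0503), Hoxc6 (adjusted p = 0.077), Hoxd4 (adjusted p = 0.104) and Hoxb7 (adjusted p = 0.174), and no test compared the low numbers with the high ones. The log2 fold change of NTS to DVC was -3.91 for Hoxb5 (adjusted p = 2.61e-06), -3.47 for Hoxa5 (adjusted p = 7.32e-05) and -7.90 for Hoxb8 (adjusted p = 0.0045). For Hoxb3 it was -0.52 (adjusted p = 0.23) and for Hoxa2 -0.29 (adjusted p = 0.682). Hoxb8 was at 0, 0, 0.0418 and 0 TPM in NTS and at 4.12, 10.3 and 3.85 TPM in DVC. The filter by region could take such a gene in through DVC alone, which then set its direction. With only NTS on the hindbrain side 14 Hox genes passed the filter, and with only DVC 19. With DESeq2, and with each of the 7 hindbrain libraries left out in turn, 8 Hox genes were again called higher in DVC. In PB, at the rostral end of the hindbrain, the highest mean of the 19 genes was 0.45 TPM, for Hoxb3.

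**Figure D1:**
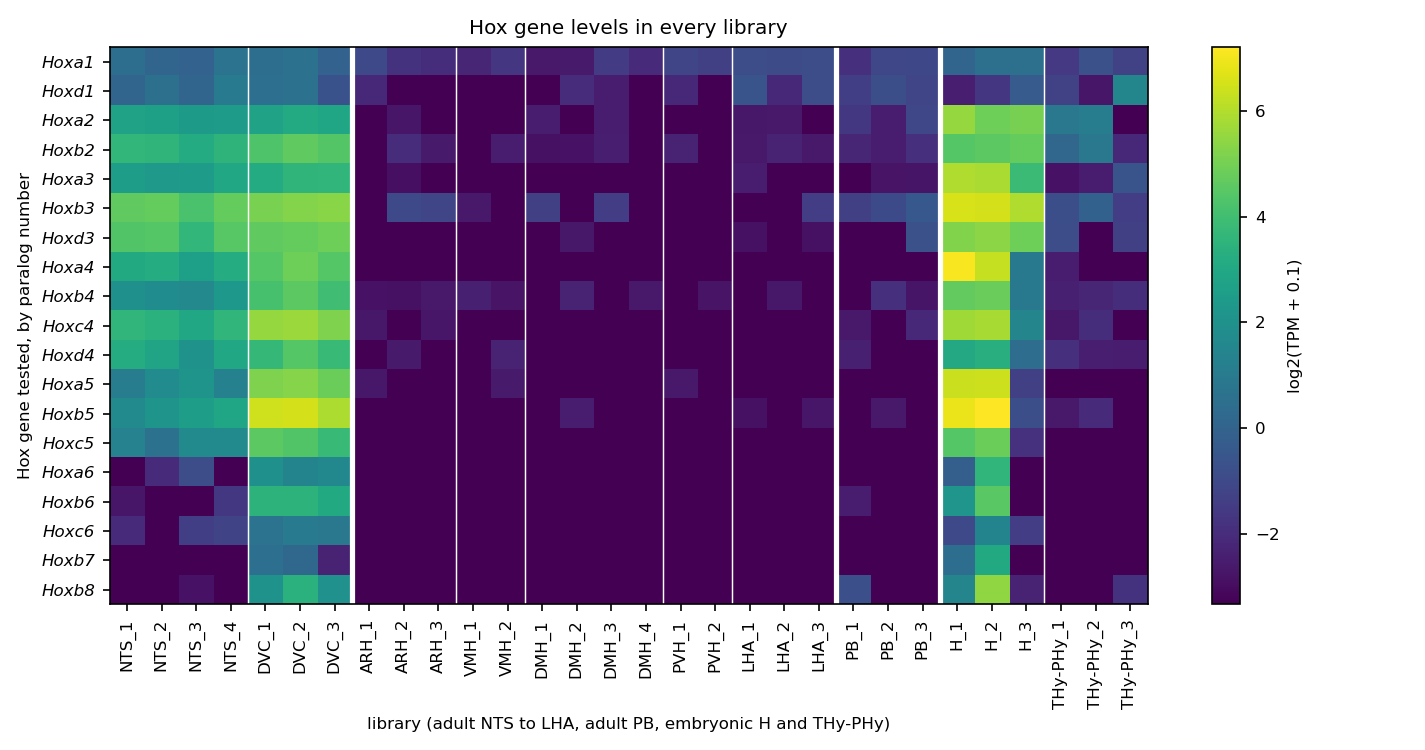
Level of each of the 19 tested Hox genes (rows, by paralog number) in each library (columns, grouped by region and divided by white lines), as log2(TPM + 0.1). The rows from Hoxa2 to Hoxc5 are bright in all 7 hindbrain libraries and dark in the 14 hypothalamic and the 3 PB libraries, the rows below them are mostly bright in DVC and dark or nearly so in NTS, and the embryonic library H_3 is dark from Hoxa5 down.

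Other transcription factors of hindbrain neurons were mostly higher on the same side. Of 24 such factors 23 were tested, and 19 were higher in the hindbrain nuclei, 12 of them without overlap. The median log2 fold change of the 23 was 3.58. Of all genes tested, 5.57% were called in this direction, 2.07% without overlap. Factors near 0 in the hypothalamus could pass the filter through the hindbrain libraries alone, which set the direction of their calls. Lbx1, a factor of dorsal association neurons, was at 5.92 to 9.67 TPM (median 7.05) against at most 0.0901 TPM (9.11 ± 0.31, adjusted p = 5.11e-13). Pax2, a factor of inhibitory neurons, was at 17.7 to 28.2 TPM (median 21) against 0.033 to 0.198 TPM (8.10 ± 0.16, adjusted p = 5.97e-17). Evx1 had no hypothalamic count and was at least 270-fold higher, although its levels of 1.48 to 2.70 TPM were low. Tfap2b (4.86 ± 0.22, adjusted p = 1.62e-12) and Pou4f1 (4.86 ± 0.24, adjusted p = 6.86e-12) also lay without overlap. Barhl2, a factor the list counts with the hindbrain, went the other way, with 0.439 to 1.57 TPM against 1.05 to 7.92 TPM (-2.10 ± 0.21, adjusted p = 8.40e-08). Its highest library was from LHA, and the sides overlapped. Gata2 and Irx5 missed the call, with fold changes of 0.39 and 0.93. With the 7 regions as units, 12 of the 23 were called higher in the hindbrain nuclei.

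The factors of the hypothalamus were called in the other direction. All 24 were tested, 19 were higher in the hypothalamus and 0 in the hindbrain nuclei, and 14 lay without overlap. The median log2 fold change of the 24 was -6.22. Of all genes tested, 5.43% were called in this direction, 2.27% without overlap. Factors near 0 in the hindbrain could pass the filter through the hypothalamic libraries alone, which set the direction of their calls. Nkx2-1 (ENSMUSG00000001496.15, chromosome 12, 56531958 to 56536908), needed for the formation of the ventral hypothalamus, was at 0 in 6 hindbrain libraries and 0.0548 TPM in the other one, and at 1.08 to 43.4 TPM (median 10.5) in the hypothalamus (-10.00 ± 0.45, adjusted p = 1.16e-11), with a count ratio of 2480 (446 to 98100, from 1 hindbrain count). Among the nuclei it ran from 24.7, 42.1 and 43.4 TPM in ARH down to 2.48 and 1.08 TPM in PVH, so that even the lowest nucleus was above every hindbrain library. Dlx1, a factor of forebrain inhibitory neurons, was at 18.1 to 89.9 TPM (median 39.9) in the hypothalamus and at 0 to 0.176 TPM in the hindbrain (-9.63 ± 0.39, adjusted p = 5.80e-13). Its neighbour Dlx2 had no hindbrain count and was at least 446-fold higher in the hypothalamus. Six3 ranged from 4.14 to 71.5 TPM (median 27.5) against at most 0.18 TPM (-10.18 ± 0.55, adjusted p = 1.04e-10). Sim1, a factor of the PVH, reached 5.79 TPM there and at most 0.0416 TPM in the hindbrain (-7.34 ± 0.42, adjusted p = 3.51e-11). Fezf1 showed how uneven the nuclei were, with 28.6 to 62.0 TPM in ARH and VMH and 0.384 to 0.681 TPM in DMH (-8.27 ± 0.50, adjusted p = 3.52e-10). Nkx2-4 was at 0 in all 7 hindbrain libraries and in both PVH libraries and at 1.33 to 30.1 TPM in the other 12, a ratio of at least 244-fold, but the fit gave no usable error and it was not called (adjusted p = 1). Tbx3, Foxb1, Hmx2 and Hmx3 missed the call too. With the 7 regions as units, 10 of the 24 were called.

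**Figure D2:**
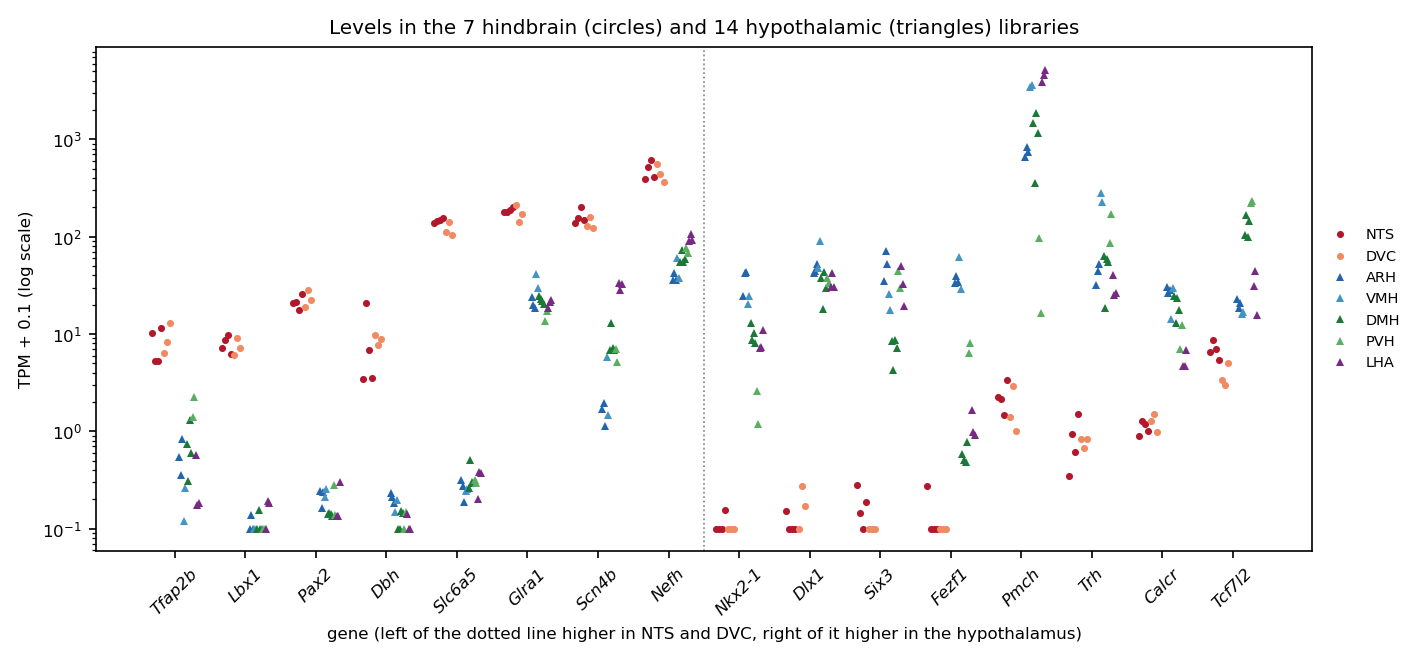
Levels of 16 genes in each of the 7 hindbrain libraries (circles) and the 14 hypothalamic ones (triangles), coloured by region, as TPM + 0.1 on a log scale. For each of the 8 genes left of the dotted line all circles lie above all triangles, and for each of the 8 right of it all lie below, while the triangles of Pmch spread from 16.3 to 5180 TPM.

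Retinoic acid patterns the caudal hindbrain in the embryo, and some genes of its pathway were called in the adult. Of 14 genes of the pathway 12 were tested, 3 were higher in the hindbrain nuclei and 1 in the hypothalamus (median 0.30), beside 5.57% and 5.43% of all genes tested. Cyp26b1, which degrades retinoic acid, was at 26.5, 28.3, 27.6 and 29.7 TPM in NTS and at 8.27, 8.58 and 16.3 TPM in DVC, against 0.362 to 5.19 TPM in the hypothalamus (4.06 ± 0.17, adjusted p = 8.61e-13). NTS was above DVC (1.43, adjusted p = 0.00644), the reverse of the 8 Hox genes called between them. Aldh1a1, which makes retinoic acid, was at 264 to 452 TPM (median 342) against 46.6 to 185 TPM (1.97 ± 0.11, adjusted p = 2.20e-11). Crabp1, a carrier of retinoic acid, was called higher in the hindbrain nuclei (1.49 ± 0.19, adjusted p = 1.57e-06) with 7.26 to 18.9 TPM, although its highest hypothalamic library, from ARH, had 93.9 TPM. With the libraries in 2 groups in place of 7 regions its fold change was -0.54 (adjusted p = 0.631). Dhrs3, which turns retinaldehyde back into retinol, was higher in the hypothalamus (-1.14 ± 0.19, adjusted p = 3.19e-05). The receptors Rara, Rarb and Rarg missed the call, with fold changes from -0.08 to 0.34.

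Genes of several transmitter systems were called, in both directions, where 5.57% and 5.43% of all genes tested were called. Slc6a5, the glycine transporter of glycinergic terminals, was at 137, 144, 149 and 156 TPM in NTS and 111, 143 and 103 TPM in DVC, and at 0.0886 to 0.401 TPM in the hypothalamus. Its log2 fold change of 9.62 ± 0.13 had the lowest adjusted p of the members described here (1.05e-19), and NTS and DVC did not differ beyond their spread (0.36, adjusted p = 0.19). Of the glycine receptor genes, Glra1, the subunit of adult brainstem and spinal cord, was higher in the hindbrain nuclei, with 140 to 210 TPM (median 180) against 13.5 to 41.6 TPM (3.20 ± 0.08, adjusted p = 8.54e-16). Glra2 (-1.20 ± 0.09), Glra3 (-1.01 ± 0.18) and Glra4 (-1.66 ± 0.31) were higher in the hypothalamus, with adjusted p-values of 1.79e-09, 6.84e-05 and 0.000141. With the DVC libraries alone on the hindbrain side, 1 of these 3 was called. Glrb, the subunit the receptors share, missed the fold limit at 0.86. None of the 4 GABA genes was called by edgeR or DESeq2 (median -0.27), although 3 had an unadjusted edgeR p under 0.05 at folds below the limit, with Gad1 at 155 to 260 TPM against 188 to 569 TPM. Slc17a6, the glutamate transporter of most brainstem and hypothalamic neurons, was at a median of 135 TPM on both sides (-0.02 ± 0.08), while Slc17a7 was called (2.25 ± 0.28, adjusted p = 1.43e-06) with overlapping levels of 24.5 to 60.3 and 0.475 to 51.7 TPM.

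Dbh (ENSMUSG00000000889.8, chromosome 2, 27165233 to 27183200) was at 3.38, 20.7, 6.71 and 3.45 TPM in NTS, at 9.63, 7.62 and 8.88 TPM in DVC and at 0 to 0.133 TPM in the hypothalamus (7.80 ± 0.44, adjusted p = 3.59e-11). Pnmt, which turns noradrenaline into adrenaline, was at 0.444 to 3.32 TPM against at most 0.132 TPM (5.80 ± 0.67, adjusted p = 2.59e-06), with a count ratio of 76.4 (21.2 to 631, from 2 hypothalamic counts). Slc6a2, the noradrenaline transporter, was also without overlap (5.24 ± 0.60, adjusted p = 4.37e-07), with 8.63 TPM in the second NTS library, the one highest in Dbh, and 0.314 to 1.28 TPM in the other 6. Th and Ddc, enzymes that dopamine neurons share, were higher in the hypothalamus, with fold changes of -1.72 ± 0.26 (adjusted p = 1.25e-05) and -1.10 ± 0.13 (adjusted p = 4.52e-07). Slc6a3 of dopamine neurons (-3.09 ± 0.28, adjusted p = 2.23e-08) and Hdc, the enzyme of histamine synthesis (-2.64 ± 0.32, adjusted p = 1.03e-06), were higher there as well. Of the serotonin genes 1 of 3 was tested, Tph2, at 0.44 to 1.68 TPM against 0.118 to 0.509 TPM (1.33 ± 0.32, adjusted p = 0.00132). It was not called without the first DVC library (0.88) or with the 7 regions as units. For comparison, the mean levels in PB were 115 TPM for Dbh, 57 TPM for Slc6a2 and 40.1 TPM for Tph2.

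Cholinergic and motor neuron genes were called together but unevenly. Of 7 genes 6 were tested, 5 were higher in the hindbrain nuclei and 1, Isl1, in the hypothalamus (-4.68 ± 0.34, adjusted p = 8.01e-10). The shares over all genes tested were 5.57% and 5.43%. Chat, which makes acetylcholine, was at 3.50, 5.67, 6.92 and 4.51 TPM in NTS, at 45.3, 10.5 and 11.7 TPM in DVC and at 0.435 to 7.00 TPM in the hypothalamus (3.55 ± 0.37, adjusted p = 1.15e-07). The first DVC library was the highest for all 5, with 148 TPM of Prph, a filament of peripheral and motor neurons, against 38.9 and 31.7 TPM in the other DVC libraries. Prph (-2.5, adjusted p = 0.0128) and Slc18a3, the vesicular transporter (-2.34, adjusted p = 0.0449), were lower in NTS than in DVC. With the 7 regions as units 3 of the 6 were called higher.

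Neurofilament genes and channels of fast-firing axons were higher in the hindbrain nuclei. All 5 neurofilament genes were called, 4 of them without overlap, with a median log2 fold change of 2.46, and 3 were called with the 7 regions as units. Nefh was at 363 to 615 TPM (median 442) against 35.4 to 106 TPM (3.12 ± 0.11, adjusted p = 1.46e-13), and Nefm (3.04 ± 0.15, adjusted p = 8.55e-12) and Nefl (2.11 ± 0.11, adjusted p = 9.29e-12) followed. Of 7 channel genes 6 were called, all 6 without overlap, and 4 were called with the 7 regions as units. Of all genes tested, 5.57% were called in this direction, 2.07% without overlap. Scn4b, a sodium channel subunit, was at 122 to 200 TPM (median 147) against 1.04 to 33.1 TPM (4.75 ± 0.18, adjusted p = 3.33e-13), and its hypothalamic levels ran from 1.04 TPM in ARH to 33.1 TPM in LHA. Kcna1 (2.70 ± 0.11), Hcn2 (1.78 ± 0.12), Scn1a (1.54 ± 0.08) and Kcna2 (1.46 ± 0.06) were called as well, with an adjusted p of at most 4.19e-10. Kcnc1 missed the fold limit at 0.57. For Nefh, Nefm, Nefl and all 7 channel genes the highest hypothalamic library was one from LHA, the nucleus whose libraries were also the highest in the hypothalamus for the summed markers of myelin given below, and the part of these axonal and glial genes in each other's difference was not tested.

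Neuropeptides were called in both directions. Of 50 neuropeptide genes 39 were tested, 9 were higher in the hindbrain nuclei and 17 in the hypothalamus (median -0.62), with 2 and 4 of them without overlap. The shares over all genes tested were 5.57% and 5.43%, and 2.07% and 2.27% without overlap. Pmch (ENSMUSG00000035383.7, chromosome 10, 88091072 to 88092375) was at 0.902 to 3.23 TPM in the hindbrain libraries and at 16.3 to 5180 TPM (median 1317) in the hypothalamus (-8.72 ± 0.49, adjusted p = 3.04e-11). LHA was highest, at 3871, 4565 and 5180 TPM, and PVH lowest, at 95.8 and 16.3 TPM, so that every nucleus lay above every hindbrain library. Trh, the thyrotropin-releasing hormone, was likewise without overlap, with 0.244 to 1.39 TPM against 18.3 to 281 TPM (-6.51 ± 0.35, adjusted p = 1.73e-11).

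For several classical hypothalamic peptides the nuclei differed widely, and the SE was large. Oxt, the precursor of oxytocin, was at 454 and 2075 TPM in PVH, at 341, 615 and 113 TPM in ARH and at 1.11 to 29.6 TPM in DMH, against at most 2.67 TPM in the hindbrain (-8.64 ± 1.10, adjusted p = 1.54e-06). Avp, the precursor of vasopressin, ranged from 0 TPM in a DMH library to 1904 TPM in an ARH library and from 0 to 0.794 TPM in the hindbrain (-10.53 ± 1.88, adjusted p = 0.000121), with a count ratio of 3200 (1100 to 15500). Hcrt, the precursor of the orexins, was at 0.276 to 1890 TPM against 0 to 1.70 TPM (-6.88 ± 1.87, adjusted p = 0.00356). Since the fold change averages the logarithms over regions, peptides of ARH gave small values although ARH stood far above the rest. Pomc reached 672 TPM there with a hypothalamic median of 5.32 TPM and a hindbrain median of 3.06 TPM (-1.98 ± 0.22, adjusted p = 3.20e-07). Agrp, its orexigenic counterpart, reached 200 TPM in ARH against a hypothalamic median of 1.45 TPM (-1.34 ± 0.39, adjusted p = 0.00548). Npy (-1.07 ± 0.19), Cartpt (-2.35 ± 0.19), Gal (-2.17 ± 0.32) and Pdyn (-2.61 ± 0.26) were also higher in the hypothalamus, with adjusted p-values of at most 9.55e-05.

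Among the 9 peptides higher in the hindbrain nuclei, Vip, the vasoactive intestinal peptide, was at 26.4, 15.5, 9.99 and 21.2 TPM in NTS and at 6.88, 14 and 12.6 TPM in DVC. The hypothalamic libraries held 0.249 to 2.91 TPM of it, without overlap (4.15 ± 0.21, adjusted p = 1.03e-11). Uts2b was the other peptide without overlap (4.23 ± 0.52, adjusted p = 9.84e-07). Calcb (3.80 ± 0.48, adjusted p = 1.34e-06) and Calca (1.23 ± 0.41, adjusted p = 0.014), which encode calcitonin gene-related peptides, had their highest levels, 32.9 and 86.2 TPM, in the first DVC library, the one that was also highest in the cholinergic genes. Crh, the corticotropin-releasing hormone, was higher in the hindbrain nuclei by the mean of logs (1.49 ± 0.21, adjusted p = 6.34e-06) although its highest library, at 21.5 TPM, was from PVH. In the fit 7 peptide genes were higher in DVC than in NTS, among them Gcg (-6.82, adjusted p = 0.00808), Penk (-1.36, adjusted p = 0.00117) and Calcb (-3.30, adjusted p = 0.0164). Gcg, near 0 in NTS, could pass the filter through DVC alone, which then set its direction. With NTS alone on the hindbrain side 4 peptides were called higher in the hindbrain, and with the 7 regions as units 2 were higher there and 5 in the hypothalamus.

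**Figure D3:**
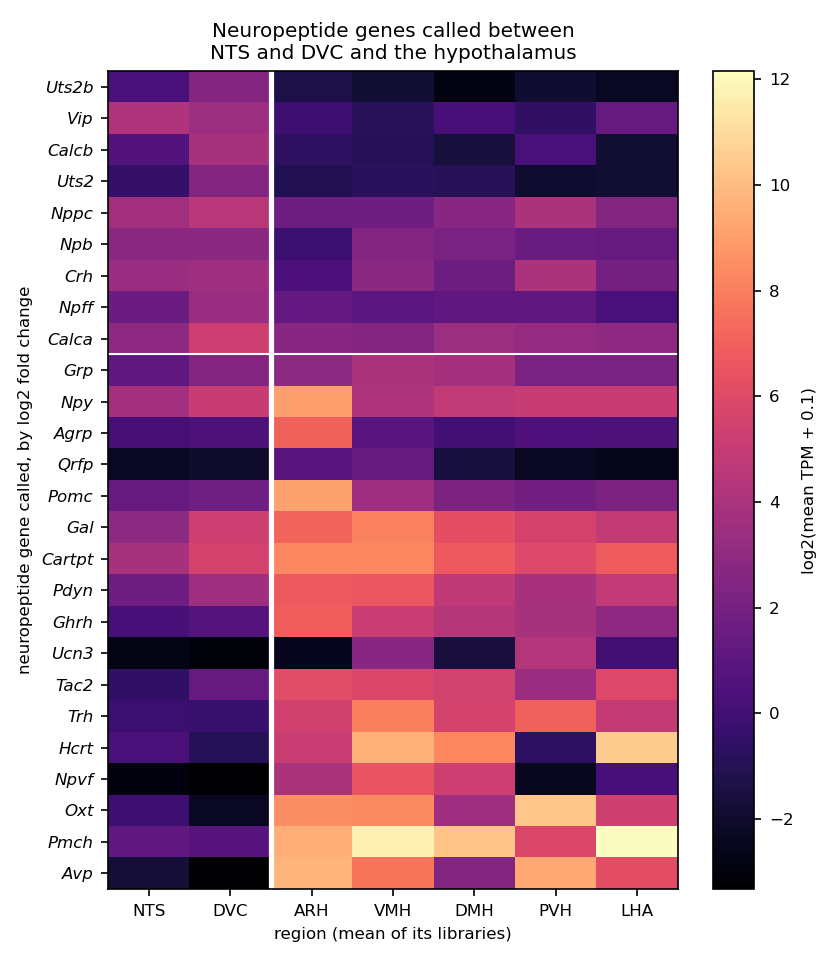
Mean level in each region of the 26 neuropeptide genes called between the sides, on a log scale of TPM. Genes higher in the hindbrain nuclei are bright in the NTS and DVC columns, and among those higher in the hypothalamus a single nucleus is often far above the rest, as ARH is for Pomc and Agrp.

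Receptors of feeding signals were called in both directions. Of 55 receptor genes 53 were tested, 4 were higher in the hindbrain nuclei and 16 in the hypothalamus (median -0.47). Of all genes tested, 5.57% and 5.43% were called in these directions, and the 4 are near the first share. Mc4r, the melanocortin receptor most often mutated in monogenic obesity, was at 2.79 to 5.97 TPM (median 4.56) against 1.03 to 2.84 TPM (median 2.05), a log2 fold change of 1.43 ± 0.15 (adjusted p = 1.98e-07), with the lowest hindbrain library just below the highest hypothalamic one. Mc3r, the other central melanocortin receptor, went the other way without overlap, at 0.0869 to 0.5 TPM against 0.887 to 13.8 TPM (-3.13 ± 0.21, adjusted p = 2.84e-10). Calcr, which binds amylin and calcitonin, was at 0.791 to 1.40 TPM against 4.61 to 30.3 TPM (-3.56 ± 0.20, adjusted p = 2.69e-11), and its partner Ramp3 followed (-3.66 ± 0.32, adjusted p = 1.33e-08). Crhr1 (1.25 ± 0.09, adjusted p = 1.13e-09), Oprd1 (1.21 ± 0.09, adjusted p = 2.30e-09) and Gipr (1.06 ± 0.17, adjusted p = 2.03e-05) were the other receptors higher in the hindbrain nuclei. Crhr2 was called higher in the hypothalamus (-1.99 ± 0.52, adjusted p = 0.00266) with the first NTS library, at 4.20 TPM, far above the other hindbrain libraries. The leptin receptor Lepr had a fold change of 0.00 ± 0.17 (adjusted p = 1), with medians of 3.21 TPM in the hindbrain and 2.73 TPM in the hypothalamus. Glp1r (-0.57 ± 0.16) and Ntrk2, the receptor of BDNF (-0.60 ± 0.05), missed the fold limit. Of the 8 steroid and thyroid hormone receptors 1 was called, Esr2 (-2.48 ± 0.43, adjusted p = 6.08e-05). With the 7 regions as units 1 receptor was higher in the hindbrain nuclei and 6 in the hypothalamus.

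Some of the genes the study took from obesity genetics were called, in both directions, where 5.57% and 5.43% of all genes tested were called. Of 9 genes of monogenic obesity, 1 was higher in the hindbrain nuclei (Mc4r) and 2 in the hypothalamus (Sim1 and Pomc), with a median of -0.60. Of 12 genes with rare coding variants 2 and 1 were called, and Sema3a, a guidance cue, lay without overlap at 9.84 to 12.1 TPM against 1.91 to 7.35 TPM (1.75 ± 0.08, adjusted p = 1.57e-12). None of the 9 genes with low-frequency coding variants and none of the 25 genes of syndromic obesity was called by edgeR's quasi-likelihood test, DESeq2 or limma. At an unadjusted edgeR p under 0.05 there were 6 of the 9 and 20 of the 25, all with fold changes below the limit. Of 144 genes at loci of genome-wide association studies 138 were tested, 9 were higher in the hindbrain nuclei and 9 in the hypothalamus, shares near the 5.57% and 5.43% of all genes tested, and the median was 0.00. Tcf7l2, an effector of Wnt signalling, was among the latter at 2.89 to 8.49 TPM against 15.4 to 234 TPM (-3.13 ± 0.19, adjusted p = 6.66e-11), with its highest level in PVH. Asb4 followed (-2.48 ± 0.22, adjusted p = 1.27e-08). In the other direction stood Tfap2b, given above, Olig3 (3.17 ± 0.38, adjusted p = 7.78e-07) and Skor1 (2.68 ± 0.21, adjusted p = 2.07e-09), factors of dorsal hindbrain and spinal cord neurons. With the 7 regions as units the counts for the association loci were 5 and 4.

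Markers of other cell types moved with the comparison, and their part in the results above was not tested. Of all genes tested, 5.57% were higher in the hindbrain nuclei and 5.43% in the hypothalamus, 2.07% and 2.27% without overlap. All 15 genes of oligodendrocytes and myelin were higher in the hindbrain nuclei (median 1.69), but none lay without overlap. Their summed level was 12700 to 18400 TPM in the hindbrain libraries, 16800, 13000 and 13100 TPM in LHA and 1210 to 7210 TPM in the other hypothalamic libraries. Mbp was at 5491 to 8361 TPM against 455 to 6931 TPM (1.84 ± 0.15, adjusted p = 4.09e-09). With the 7 regions as units 0 of the 15 were called. Of 13 astrocyte genes 3 were higher in the hindbrain nuclei, among them S100b (1.57 ± 0.08, adjusted p = 8.39e-12), and 1 in the hypothalamus, Slc1a3 (-1.39 ± 0.06, adjusted p = 2.32e-12), all 4 without overlap. None of 10 microglial genes was called by edgeR or DESeq2, although all 10 had negative fold changes and an unadjusted edgeR p under 0.05, and their sums, 252 to 273 TPM against 292 to 416 TPM, did not overlap. None of 6 endothelial genes was called by either tool, with all 6 at an unadjusted edgeR p under 0.05 (median 0.65, sums of 143 to 171 TPM against 86.5 to 140 TPM). All 5 genes of red blood cells were higher in the hindbrain nuclei (median 1.24), with overlapping sums of 1300 to 3550 TPM and 406 to 2690 TPM. Hba-a1 and Hba-a2 among them are near-identical copies that share reads. With the 7 regions as units 0 of the 5 were called. Of 7 immediate early genes, 5 were higher in the hypothalamus (median -1.02), 3 without the first DVC library and 2 with DVC alone.

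The calls of choroid plexus genes rested in part on 1 library. As above, 5.57% and 5.43% of all genes tested were called. Ttr, the transthyretin of the choroid plexus, was at 10330 TPM in the first NTS library, at 10.7, 3.85 and 2.47 TPM in the other NTS libraries, at 273, 1.08 and 52.5 TPM in DVC and at 0.102 to 3.85 TPM in the hypothalamus. Of 8 such genes 4 were called higher in the hindbrain nuclei (median 1.93), 1 of them without overlap. Without the first NTS library 2 were higher and 3 lower (median -0.78), and with DESeq2 0 were called. With DVC alone on the hindbrain side 2 were higher and 2 lower. Kl, a co-receptor for fibroblast growth factors, changed its sign without the first NTS library, from 1.72 ± 0.68 (adjusted p = 0.0348) to -0.39 (adjusted p = 0.0801). Without that library the genes called numbered 921 higher in the hindbrain nuclei and 1035 in the hypothalamus, the highest hypothalamic count with any single library left out (878 to 1035). In ARH the sum of pituitary genes reached 131 TPM, and 0 of the 8 tested were called by edgeR, with 1 at an unadjusted p under 0.05, against 2 called higher in the hypothalamus by DESeq2. Genes of the telencephalon were higher in the hypothalamus in 5 of 7 cases (median -2.23) and in the hindbrain nuclei in the other 2, Neurod2 and Neurod6, and those of the cerebellar cortex higher in the hindbrain nuclei in 4 of 6 (median 2.05), with low and overlapping sums of 25.8 to 44.5 TPM and 24.1 to 41.9 TPM. Of the remaining lists, precursors of oligodendrocytes gave 1 gene higher in the hindbrain nuclei of 5, mural and meningeal cells 0 of 10 by edgeR and by DESeq2 (5 at an unadjusted edgeR p under 0.05), ependymal cells 1 of 6 higher in the hypothalamus, and tanycytes, the glia of the third ventricle, 1 and 3 of 6, led by Gpr50 (-3.82 ± 0.35, adjusted p = 1.93e-08).

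**Figure D4:**
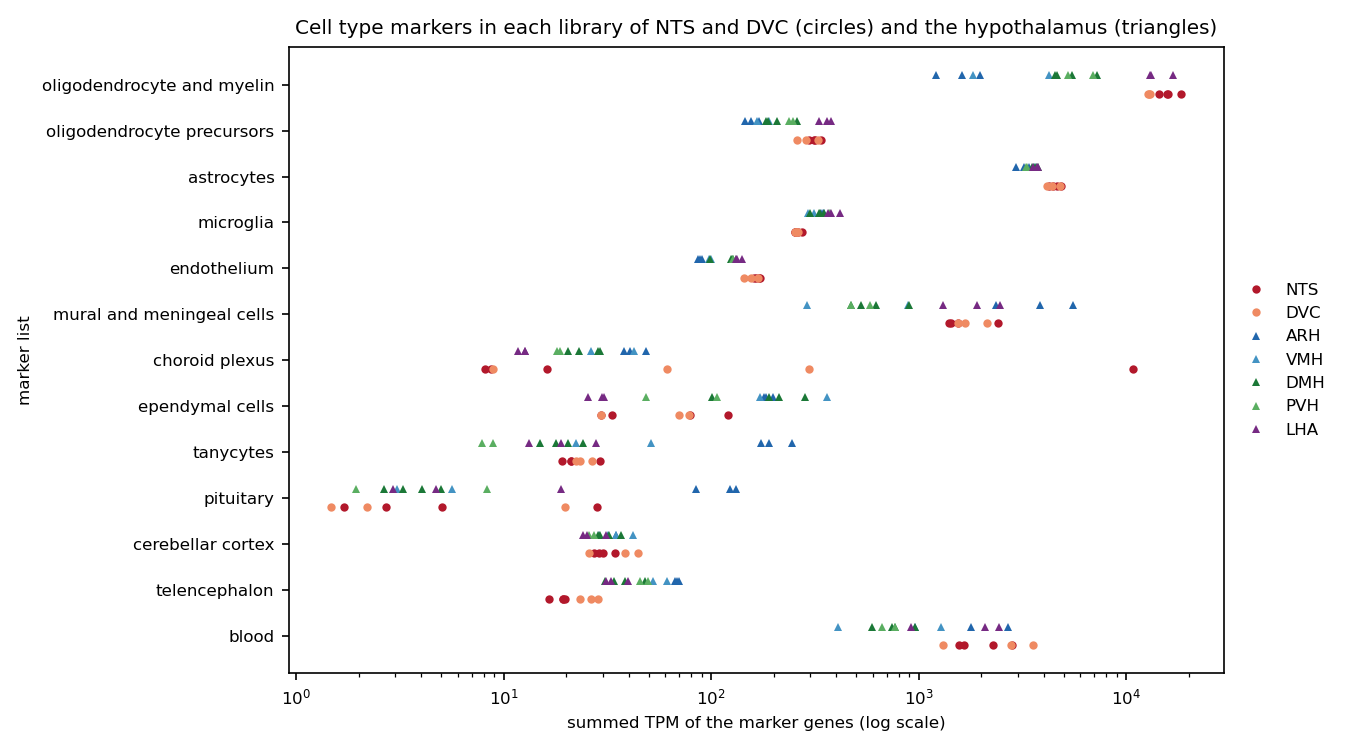
Summed TPM of each cell type marker list (rows) in each of the 21 libraries, coloured by region, on a log scale. The 3 LHA libraries lie with the hindbrain libraries for myelin, the first NTS library stands alone at 10800 TPM for the choroid plexus, and the ARH libraries are highest for the pituitary.

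The hypothalamic nuclei lay at unequal distances from the hindbrain. In comparisons that share the 7 hindbrain libraries, 1437 genes were higher in the hindbrain nuclei than in ARH and 1587 lower (8.51% and 9.4%), 1180 and 1231 against VMH (6.99% and 7.29%), 864 and 1050 against DMH (5.12% and 6.22%), 862 and 948 against PVH (5.11% and 5.62%), and 487 and 482 against LHA (2.89% and 2.86%). Of the 916 genes higher in the hypothalamus, 383 were above every hindbrain library in all 5 nuclei and 24 in none of them, and the highest mean was in ARH for 455, VMH for 201, PVH for 187, DMH for 55 and LHA for 18. The nuclei also differed from each other, with 2030 genes called between ARH and LHA (12%) and 191 between DMH and PVH (1.13%). The hindbrain side was more even. Between NTS and DVC, 5 genes were higher in NTS (0.0296%) and 40 in DVC, and at an unadjusted p under 0.05 the counts were 1096 and 1380. Log levels correlated across genes at r between 0.97 and 0.979 for pairs of an NTS and a DVC library, as did pairs of NTS libraries (0.969 to 0.982), and at 0.906 to 0.963 between the sides, where genes are not independent replicates. Without the first DVC library 17 genes were higher in DVC. Anatomically the DVC contains the NTS, but by the study's section drawings the 2 were punched from different coronal sections.

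In the embryo at E14.5, the same contrast of hindbrain to hypothalamus used libraries that the adult comparison did not. Of 15601 genes tested, 216 were higher in H (1.38%) and 72 in THy-PHy (0.462%), with a median of 0.01. Each embryonic library pooled several embryos, and by the methods of the study there were fewer embryos than separate pools would need, so libraries of different regions shared embryos. With the replicate number as a block the counts were 39 and 23, among them 5 Hox genes, 3 hindbrain factors and 11 hypothalamic factors. The 3 H libraries were unlike each other: the first had 9074581 counts and 22.56% mitochondrial transcripts, against 16413807 and 16776555 counts and 11.81% and 6.1% in the others. The third was at 0.471 TPM of Hoxb5, where the others were at 120 and 147 TPM, but at 62.0 TPM of Hoxb3. With 1 of these 6 libraries left out the counts ranged from 50 to 268 and from 23 to 129.

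Of the 656 genes higher in the adult hindbrain nuclei that were tested in the embryo, 475 had the same sign (72.4%, against 50.3% of all 15203 genes tested in both), 63 were called the same way and 4 the opposite way. The 63 were 9.6% of the adult genes and 29.2% of those called higher in H. Of the 704 genes higher in the adult hypothalamus 411 had the same sign (58.4%, against 49.7%), 49 were called the same way, which was 6.96% of these and 68.1% of those called higher in THy-PHy, and 19 the opposite way. Developmental genes were among these calls. Of 10 Hox genes tested 8 were higher in H (median 7.62), with Hoxb3 at 93.7, 90.6 and 62.0 TPM in H and 0.279 to 0.863 TPM in THy-PHy (7.76 ± 0.63, adjusted p = 0.00258). Leaving out 1 library or changing the tool gave between 3 and 13. The filter on low counts worked by region here too, so Hox genes could enter through H alone. Factors near 0 in H could likewise enter through THy-PHy alone, which set the direction of their calls. Hoxb5 was not tested in the embryo. Of 24 hypothalamic factors 16 were higher in THy-PHy (median -4.59), with Nkx2-1 at 138, 115 and 71.8 TPM there and 0 to 0.209 TPM in H (-9.56 ± 0.58, adjusted p = 0.000896). Tbx3 and Hmx2, which missed the call in the adult, were called here (-2.75 ± 0.43, adjusted p = 0.0273, and -4.14 ± 0.69, adjusted p = 0.0345). Of 24 hindbrain factors 9 were higher in H (median 2.69), among them Tfap2b (5.34 ± 0.32, adjusted p = 0.000896). The count for hindbrain factors was 2 without the second THy-PHy library, 3 without the third and 15 with DESeq2. Cyp26b1 was higher in H (4.26, adjusted p = 0.00328), whereas 0 of 5 neurofilament and 0 of 6 channel genes were called by edgeR or DESeq2, with medians of 0.13 and 0.38 and with 0 and 2 genes at an unadjusted edgeR p under 0.05. Choroid plexus genes were higher in H in 6 of 8 cases (median 4.56), with Ttr at 566, 1025 and 1880 TPM.

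**Figure D5:**
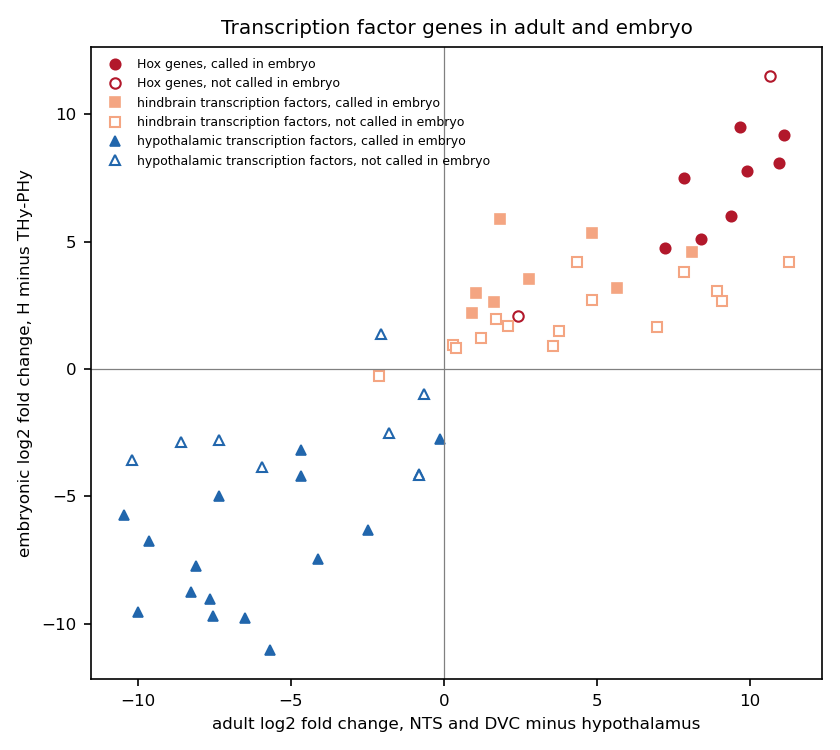
Log2 fold change of hindbrain to hypothalamus in the adult (x axis) and in the embryo (y axis) for Hox genes, hindbrain factors and hypothalamic factors, one point a gene, filled where the embryonic difference was called. The called Hox genes lie in the upper right and the called hypothalamic factors in the lower left, with Tbx3 and Hmx2 near 0 on the adult axis.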

How the data were processed

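RNA of punched mouse brain regions had been sequenced by the authors. Per the submitters' processing notes, reads were called with CASAVA 1.8.2 and quantified with kallisto on GRCm38. The deposited tables hold estimated counts per transcript and TPM per transcript and gene, made by the authors and not normalized between libraries. Here estimated counts were summed per gene (107987 of 109282 transcripts matched a gene by GENCODE mouse release 21, the rest holding 0.418% to 0.767% of counts; 365 genes had incomplete counts) and rounded.

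The main test was edgeR 4.0.16 (R 4.3.3; TMM, filterByExpr, quasi-likelihood) with a group for each of the 7 regions, contrasting the mean of 2 hindbrain regions with that of 5 hypothalamic ones. A call took an adjusted p (Benjamini-Hochberg) under 0.05 together with a difference of more than 1 on the log2 scale. DESeq2 1.42.0 and limma 3.58.1 served as alternatives, the latter on log2(TPM + 0.5) or log2(TPM + 0.1). Tables and figures used Python 3.11.15, NumPy 2.4.6, pandas 2.3.3 and matplotlib 3.10.9. On simulated counts for the 16878 genes of the adult comparison the test recovered 98 of 100 genes changed by 1.5 and 99 of 100 changed by 2.5 on the log2 scale, with 3 calls among unchanged genes. For the 15601 genes of the embryonic comparison it recovered 54 and 90 of 100, with 13 such calls. In both simulations all 200 changed genes passed the filter on low counts, so recovery of genes with few counts was not tested. Pools that shared animals and nuclei that differed within a side were not simulated either. The rates therefore hold for the simulated counts and may be better than those for these libraries.

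The members and the 35 gene lists were chosen with earlier results of these data known. Genes named by rule were Hoxb5, the 10 largest changes in each direction among called protein-coding genes without overlap and with a mean of at least 5 TPM on the higher side, up to 8 called members of each list by size of change with its most abundant member, and members called against the side of their list. Other genes were named after their values were seen, and some genes that the rule takes in are not reported here. Ratios against a side with no counts used a floor of 3 counts over that side, and intervals cover counting error only.

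Deviations of same-numbered adult libraries correlated at -0.14 to 0.11 over 53 pairs, and those of libraries of the same run at -0.19 to 0.14 over 46 pairs. Values near 0 cannot show whether libraries shared animals, so pairing was not settled. No pair of replicates agreed within counting noise (lowest chi-square per gene 5.5 over 29 pairs). The labels give each library a number, and by these numbers the 21 adult libraries compared were grouped here into 4 runs. The runs are not named in the labels, and what a run stands for is not stated there. The study collected its samples in batches, and the batches it lists for each of the 7 regions are the same numbers as the runs. With the run as a block 915 and 896 genes were called. Within every run, 834 of the 940 (88.7%) and 826 of the 916 called genes (90.2%) kept their sign. These genes were called from the same libraries, so a shared sign was largely built in and is no separate support. The runs also held unlike sets of nuclei.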

Additional observations from a re-analysis of the deposited data

Results flagged for a closer look

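A single library stood far from its group in 23 of 216 groups of 4 libraries or more, where the criterion flags about 1 in 20 single groups by chance, and these groups share libraries and are not independent. The first NTS library had 10330 TPM of Ttr (next 10.7), 41.5 TPM of Slc4a5 (1.99), 60.5 TPM of Kcnj13 (1.24), 90.1 TPM of Kl (1.62) and 4.20 TPM of Crhr2 (0.412). All but Crhr2 are on the choroid plexus list. The second NTS library had 8.63 TPM of Slc6a2 (1.08), 21.5 TPM of Th (7.41) and 70.5 TPM of Sox10 (63.4). The third NTS library was low in Hoxb3 at 17.9 TPM (24.7) and high in Isl1 at 1.24 TPM (0.394), Mobp at 2594 TPM (1925), Ptgds at 2270 TPM (1386) and Gpr50 at 1.80 TPM (0.406).

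The second DMH library was low in Mc3r at 1.52 TPM (next 2.33), Glra3 at 8.29 TPM (11.3) and Slc1a3 at 229 TPM (282), and high in Scn4b at 13.0 TPM (7.04), Gjb1 at 25.1 TPM (14.9), Trf at 805 TPM (459) and Ugt8a at 37.0 TPM (27.9). Gjb1, Trf and Ugt8a are myelin genes. The first DMH library was high in Avp at 18.8 TPM (1.81), Sstr5 at 2.44 TPM (1.53) and Crym at 2.38 TPM (1.53).

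Of the genes that the naming rule takes in, 7 differed between the hindbrain regions, tested as NTS minus DVC with edgeR. Others called in that test, such as Hoxa5, Hoxb8 and Penk, are given with the results. The log2 fold change was -3.91 for Hoxb5 (adjusted p = 2.61e-06), -1.99 for Hoxc4 (adjusted p = 0.000483), -1.51 for Hoxa4 (adjusted p = 0.0105) and -2.77 for Hoxc5 (adjusted p = 0.00331). It was 1.43 for Cyp26b1 (adjusted p = 0.00644), -2.34 for Slc18a3 (adjusted p = 0.0449) and -2.5 for Prph (adjusted p = 0.0128).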

How the results depend on the processing

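Of 147 named genes 132 were called, and 67 of these lost neither call nor direction under any alternative run. Over 5132 values, 4998 kept direction and side of the threshold, 128 lost the call (71 with the 7 regions as units), 4 gained it and 2 reversed: Crabp1 at -0.54 with 2 groups of libraries and Kl at -0.39 without the first NTS library (up to 1.92 with another left out). The causes were not tested. Genes higher in the hindbrain nuclei numbered 517 with limma on log2(TPM + 0.5), which called 825 in the hypothalamus and moved the median of all genes to -0.134, and 286 with the 7 regions as units, which called 395 in the hypothalamus. Leaving out single libraries gave 880 to 1006 and 878 to 1035. With the replicate block the counts were 952 and 910, and in the embryo 39 and 23, where 1 of 3 H libraries correlated best with its own number. Embryonic counts were 447 and 189 with DESeq2, 87 and 75 higher in H with limma at pseudocounts of 0.5 and 0.1, and 50 to 268 and 23 to 129 with a library left out (lowest without the second THy-PHy library). Alternatives added after the data were seen gave, with DESeq2, 12 genes higher in NTS and 64 in DVC, and with a hindbrain library left out 3 to 9 and 17 to 47 (17 without the first DVC library). Genes without overlap numbered 610 higher in the hindbrain nuclei without LHA and 575 higher in the hypothalamus with NTS alone, and 346 to 384 and 374 to 417 with a library left out. At this depth, levels of a few hundredths of a TPM rest on 1 or 2 counts.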

Other observations

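Some genes outside the lists, chosen after their values were seen, were called by edgeR and lay without overlap. Values are means over regions in the hindbrain nuclei and the hypothalamus. Higher in the hindbrain nuclei were Dmbx1, a homeobox factor (7.10 and 0.0527 TPM, log2 fold change 7.22 ± 0.28), Pax8, a relative of Pax2 (15.7 and 0.159 TPM, 6.70 ± 0.16), and Mab21l2 (58.2 and 1.70 TPM, 5.83 ± 0.13). All 3 were also higher in the embryonic hindbrain, with fold changes of 6.49 (adjusted p = 0.00213), 4.69 (adjusted p = 0.0123) and 3.36 (adjusted p = 0.0197). Dao, which breaks down D-serine, was at 23.1 and 1.05 TPM (4.83 ± 0.16), and Syt2, a calcium sensor of fast transmitter release, at 328 and 31.4 TPM (3.99 ± 0.12).

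Higher in the hypothalamus were Nr2e1, a nuclear receptor of forebrain progenitors (0.0447 and 5.57 TPM, -6.72 ± 0.26), and Irs4, an insulin receptor substrate (2.16 and 40.2 TPM, -3.62 ± 0.14). In the embryo their fold changes were -5.05 (adjusted p = 0.00213) and -3.48 (adjusted p = 0.0226). Ddn, a dendritic protein, was higher in the adult hypothalamus (0.789 and 27.2 TPM, -4.91 ± 0.25) and higher in the embryonic hindbrain (3.66, adjusted p = 0.0296).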
